A study of Mus musculus with 4 samples.

Results

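The cytosolic ribosomal protein genes were examined in the cerebellum of male mice given the neonicotinoid insecticide clothianidin. Members were all probe sets whose annotated symbol was Rpl or Rps followed by a digit, together with Rpsa, Rplp0, Rplp1, Rplp2 and Fau where present. Of 76 names that fitted this pattern, 6 Rps6k kinase genes and 1 pseudogene name were left out. The remaining 69 genes, of 19505 named genes on the array, had 1 probe set each. They comprised 33 core large subunit genes, 23 core small subunit genes, 11 paralogs (8 named Rpl and 3 named Rps) and 2 names that are not ribosomal proteins, Rps19bp1 and Rps23rg1. Where the subunits are compared, the large subunit has 41 genes and the small subunit 26, paralogs included.

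The exposed mice received clothianidin by mouth at 50 mg per kg per day for 4 days (replicates 6 and 7), and the control mice received vehicle for the same 4 days (replicates 7 and 9). All mice were C57BL/6N males aged 10 weeks, all were tested for motor coordination on a rotarod, and all brains were taken right after that test. The labels do not say what the vehicle was, or whether an array holds the tissue of 1 mouse or of several. Each of the 4 arrays gave 1 log2 probe set value per gene, made by the authors with RMA, an averaging and normalization method for Affymetrix arrays. The log base was not stated and was taken as 2. Nothing in the labels names separate animals, so each p-value here reflects only how far these 4 samples scatter, and that scatter may be technical.

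A cytosolic ribosome is built from ribosomal RNA and a fixed set of proteins, 1 copy of most per particle, so the genes of both subunits are usually expressed together. The large subunit joins amino acids and the small subunit reads the messenger RNA. Most ribosomal protein messenger RNAs begin with a C and a run of pyrimidines, the 5′ terminal oligopyrimidine (TOP) tract, through which mTORC1 and the RNA-binding protein LARP1 control their translation. Neurons make ribosomes at a high rate, and Purkinje cells, the large output neurons of the cerebellar cortex, are rich in them.

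The pyrimidine tract is shown here for core members whose values were most and least spread between the clothianidin arrays, to let the letters around the annotated start be seen. RefSeq promoter windows of mouse build GRCm38.p6 were found for 56 of the 69 genes. The tract was searched on the transcribed strand as a C followed by at least 5 more letters C or T, with that C within 10 bases of the annotated start. Printed windows run from 40 bases before the start through the 20 bases from it, 5′ to 3′, and capitals mark the tract. It began 3, 2, 4 and 9 bases before the annotated start in Fau, Rps18, Rpl15 and Rpl6, at the start itself in Rps15a and after it in Rps26. The Rpl6 stretch ended before the annotated start, so it meets the search rule but lies outside the annotated transcript. The first 3 had the widest gap between the clothianidin arrays among the 16 core genes with a tract, a single annotated start and a chromosome that could be printed, and the last 3 had the narrowest.
Fau, chr19:6057907-6057966, plus strand: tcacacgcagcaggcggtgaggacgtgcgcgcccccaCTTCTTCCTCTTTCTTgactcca
Rps18, chr17:33955646-33955705, minus strand: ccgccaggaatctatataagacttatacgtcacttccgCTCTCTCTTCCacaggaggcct
Rpl15, chr14:18270967-18271026, minus strand: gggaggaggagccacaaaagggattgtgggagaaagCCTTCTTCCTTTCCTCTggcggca
Rps26, chr10:128626487-128626546, minus strand: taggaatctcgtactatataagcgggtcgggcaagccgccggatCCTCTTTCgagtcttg
Rpl6, chr5:121204461-121204520, plus strand: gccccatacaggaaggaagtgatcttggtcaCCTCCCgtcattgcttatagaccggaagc
Rps15a, chr7:118116128-118116187, minus strand: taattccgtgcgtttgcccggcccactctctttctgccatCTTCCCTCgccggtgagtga

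A tract by this rule lay near the start of 21 of 44 core genes (47.7%) with a window, against 19.6% of all 27025 genes in the table. With the stricter form, a C exactly at the annotated start followed by at least 4 letters C or T, the share was 27.3% of core genes and 3.01% of all genes. The letters CTTCCG on either strand, the core of an ETS factor site, were found for 65.9% of core genes and 18.8% of all genes. They were searched from 250 bases before the start through the 50 bases from it, a wider stretch than that printed. For each of these motifs, a gene with several annotated starts was counted if any of its windows had a match. TATAA lying wholly within bases 40 to 21 before the start was found for 2 of the 44 core genes and for 3.99% of all genes. CTTCCG can overlap the tract, and a window without a match shows only that these letters are not in it.

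Ribosomal protein transcripts differed more between the clothianidin arrays than between the groups, by a wider margin than probe sets in general. Clothianidin replicate 7 had the highest value of the 4 arrays for 54 of the 69 genes (78.3%), and clothianidin replicate 6 the lowest for 36 (52.2%). The other lows were mostly on vehicle replicate 9, with 23 genes (33.3%), and vehicle replicate 7 lay between. Among all 22206 probe sets the highest value fell on clothianidin replicate 7 in 21.6%. The lowest fell on clothianidin replicate 6 in 26.3% and on vehicle replicate 9 in 27.6%. Among the other probe sets of at least median level, the highest was on clothianidin replicate 7 in 22.0%. There the lowest was on clothianidin replicate 6 in 18.4% and on vehicle replicate 9 in 37.9%, the latter above the members' 33.3%.

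The size of this array pattern was read from each gene's deviation, its log2 value minus its mean over the 4 arrays. The median deviation of the 69 genes was -0.29 on clothianidin replicate 6 and 0.43 on clothianidin replicate 7, against 0.115 on vehicle replicate 7 and -0.24 on vehicle replicate 9. By these medians the clothianidin arrays lay outside the vehicle arrays on both sides. Replicate 7 exceeded replicate 6 of the clothianidin group in 62 genes, with a median gap of 0.70 on the log2 scale and a highest gap of 2.21. That is 89.9% of the members, where 48.5% of all probe sets and 41.6% of the other probe sets of at least median level lay that way. In the vehicle group, replicate 7 exceeded replicate 9 in 57 genes, with a median gap of 0.36 and a highest gap of 1.17. That is 82.6%, where 54.4% of all probe sets and 65.6% of the others of at least median level lay that way, so part of the vehicle order was shared with well expressed genes in general. The median size of the difference between groups, regardless of sign, was 0.205. The median size of the gap, regardless of sign, was 0.71 between clothianidin arrays and 0.40 between vehicle arrays. Over all probe sets those medians were 0.215 for the difference between groups, 0.31 for the gap between clothianidin arrays and 0.32 for the gap between vehicle arrays. A gap between single arrays scatters more than a difference between group means, so gaps are wider for genes in general.

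**Figure D1:**
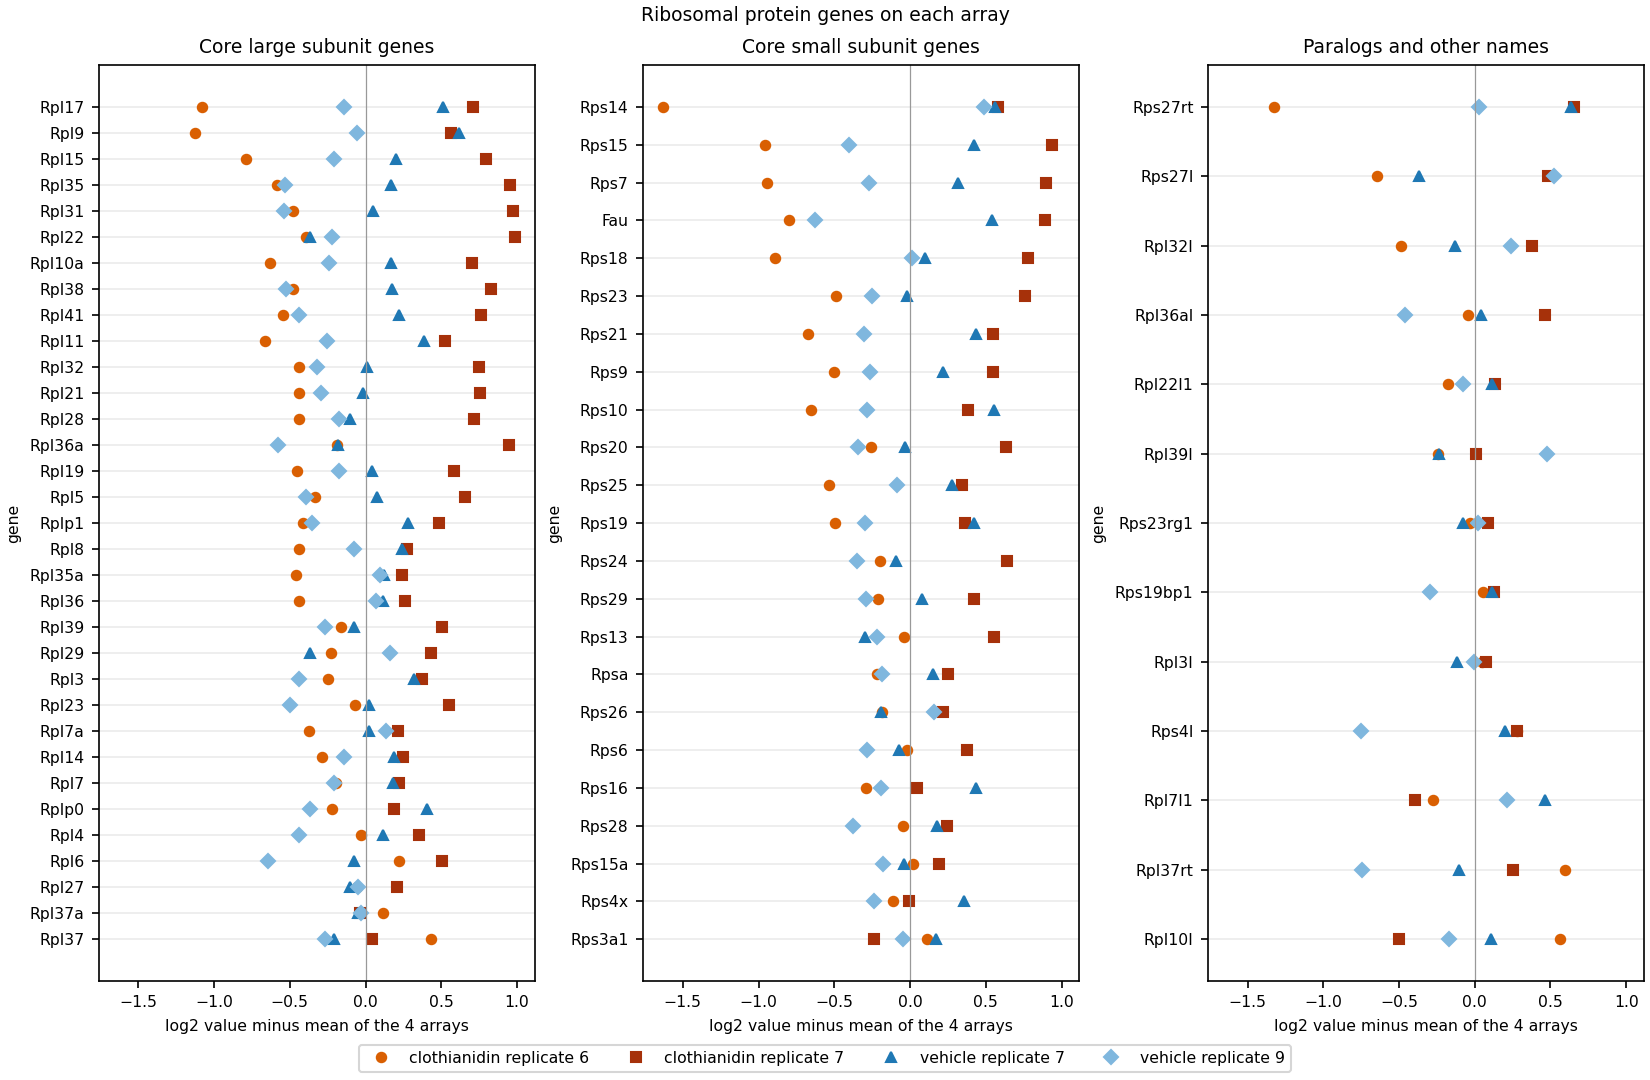
Log2 value of each gene minus its mean over the 4 arrays, on the x axis, with 1 row per gene and 1 point per array; genes are sorted by the gap between the clothianidin arrays. Clothianidin replicate 7 (dark squares) is the highest array for 47 of the 56 core genes. The lowest array is clothianidin replicate 6 (orange circles) for 31 core genes and vehicle replicate 9 (diamonds) for 19. Vehicle replicate 7 is shown by triangles.

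Both subunits followed the same array order. The median deviation of the 41 large subunit genes was -0.34 and 0.46 on clothianidin replicates 6 and 7, against 0.075 and -0.225 on vehicle replicates 7 and 9. For the 26 small subunit genes it was -0.39 and 0.45 on clothianidin replicates 6 and 7, against 0.19 and -0.26 on vehicle replicates 7 and 9. Large minus small was 0.06 and 0.01 on the clothianidin arrays, against -0.11 and 0.03 on the vehicle arrays, so the subunits differed by less than the arrays did. With core genes alone that difference was -0.12 and 0.11 on the clothianidin arrays, against -0.06 and 0.01 on the vehicle arrays, which turns its sign on clothianidin replicate 6. No test was made of a score over the members, because they were chosen with earlier results of these data known.

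The widest gaps were in small subunit genes. Rps14, which encodes a platform protein beside the exit of the messenger RNA channel, was at 11.71 and 13.92 on clothianidin replicates 6 and 7, against 13.90 and 13.83 on vehicle replicates 7 and 9. Clothianidin replicate 6 alone stood low. Rps15, whose product reaches toward the decoding site, was at 13.76 and 15.66 with clothianidin, against 15.14 and 14.32 with vehicle. Rps7 was at 13.04 and 14.88 with clothianidin, against 14.30 and 13.71 with vehicle. In both, the clothianidin values enclosed the vehicle values. Fau, which encodes a ubiquitin-like protein fused to a small subunit protein, was at 11.01 and 12.70 with clothianidin, against 12.35 and 11.18 with vehicle, so its high and low arrays were split within each group.

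Among large subunit genes the gap was widest for Rpl17, a protein at the exit of the nascent chain tunnel, with 14.37 and 16.16 on the clothianidin arrays, against 15.96 and 15.31 on the vehicle arrays. Rpl9 was at 12.27 and 13.96 with clothianidin, against 14.01 and 13.34 with vehicle. Clothianidin replicate 6 was the low array in both genes. Rpl15, at 13.33 and 14.91 with clothianidin against 14.32 and 13.91 with vehicle, had the same low array. Rpl22, an RNA-binding protein of the ribosome surface, was at 11.70 and 13.08 with clothianidin, against 11.73 and 11.87 with vehicle, so that clothianidin replicate 7 stood above the other 3 arrays. Of the other genes whose start is printed above, Rps18 was at 11.78 and 13.45 with clothianidin, against 12.77 and 12.68 with vehicle, and Rps15a at 10.38 and 10.55 with clothianidin, against 10.32 and 10.18 with vehicle. The genes printed were chosen for a wide or a narrow gap, so that contrast is no result. Rps26 was at 9.92 and 10.32 with clothianidin, against 9.91 and 10.26 with vehicle, with a low and a high array in each group. Core genes with a tract near the start had a median gap between clothianidin arrays of 1.05 (21 genes), and core genes without one 0.59 (23 genes). Between vehicle arrays the median gap was 0.41 with a tract and 0.47 without, and the median log2 difference between groups 0.09 and 0.075. For the stricter tract form, the median gap between clothianidin arrays was 1.19 with it (12 genes) and 0.755 without (32 genes). Split by CTTCCG it went the other way, at 0.67 with the letters (29 genes) and 0.99 without (15 genes). These values are given as a description, and a link between either motif and the gap was not tested.

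A few members ran against the pattern. Rpl37, Rpl37a and Rps3a1 were the 3 core genes with a higher value on clothianidin replicate 6 than on replicate 7. Rpl37 was at 13.84 and 13.45 on clothianidin replicates 6 and 7, against 13.20 and 13.14 on the vehicle arrays. Rpl37a was at 12.02 and 11.87 with clothianidin, against 11.86 and 11.88 with vehicle, a range of 0.16 over the 4 arrays. Rps3a1 was at 12.56 and 12.21 with clothianidin, against 12.62 and 12.40 with vehicle. The retrocopy Rpl37rt, at 12.15 and 11.81 with clothianidin against 11.45 and 10.81 with vehicle, also had its highest value on clothianidin replicate 6. Rpl37 and Rpl37rt share sequence, and ribosomal protein genes have many near-identical processed copies, so signal cannot be assigned to a parent gene or its copy with certainty.

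Gene by gene, the gap in the clothianidin group and the gap in the vehicle group went together loosely. Across the 69 genes, Pearson's r between the gap of clothianidin replicate 7 minus 6 and the gap of vehicle replicate 7 minus 9 was 0.23 and Spearman's rho was 0.29. Over all 22206 probe sets r was -0.16 and rho -0.14. These are descriptions across genes measured on the same 4 arrays, and genes are not independent replicates. Across the members the gap between clothianidin arrays also went with the mean level (rho 0.46 over 69 genes). With core genes alone, without the mostly dimmer paralogs and other names, rho was 0.36. For the 11040 other probe sets of at least median level it was -0.08.

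**Figure D2:**
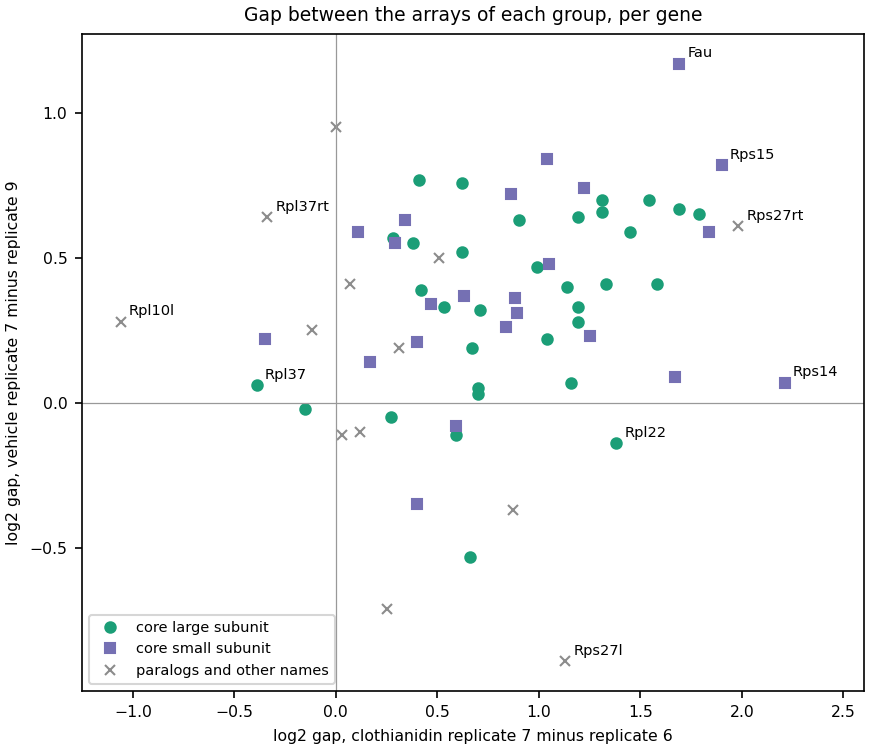
Log2 gap between the clothianidin arrays (replicate 7 minus 6, x axis) against that between the vehicle arrays (replicate 7 minus 9, y axis), 1 point per gene. Most of the 69 points lie right of 0 (62 genes) and above 0 (57 genes), with Fau high on both axes and Rps14 wide on the x axis alone.

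Of the other pathway lists, 3 had the widest spread between arrays, with the same highest array. Nuclear-encoded respiratory chain genes (72 measured) had median deviations of -0.27 and 0.46 on clothianidin replicates 6 and 7, against 0.10 and -0.22 on vehicle replicates 7 and 9. The 76 mitochondrial ribosomal protein genes, which serve the separate ribosome inside mitochondria, were at -0.11 and 0.38 with clothianidin, against 0.01 and -0.28 with vehicle. Genes of the proteasome, the protein-degrading complex (30 measured), were at -0.08 and 0.30 with clothianidin, against 0.07 and -0.33 with vehicle. Clothianidin replicate 7 stood highest in each, and the lowest array was clothianidin replicate 6 for the respiratory chain and vehicle replicate 9 for the other lists.

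Genes that make or regulate ribosomes were nearly flat by comparison. Ribosome assembly factors (46 measured) were at -0.03 and 0.07 on the clothianidin arrays, against 0.12 and -0.185 on the vehicle arrays. The list for transcription of ribosomal RNA (16 measured) was at 0.05 and 0.105 with clothianidin, against 0.08 and -0.14 with vehicle. Initiation factors (28 measured) were at 0.01 and 0.09 with clothianidin, against 0.05 and -0.18 with vehicle. Elongation factors and other TOP messenger RNAs (16 measured) came closer to the ribosomal protein order, with -0.07 and 0.18 for clothianidin, against 0.09 and -0.13 for vehicle. The median over all probe sets of at least median level was 0.075 and -0.0075 with clothianidin, against 0.04 and -0.13 with vehicle.

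**Figure D3:**
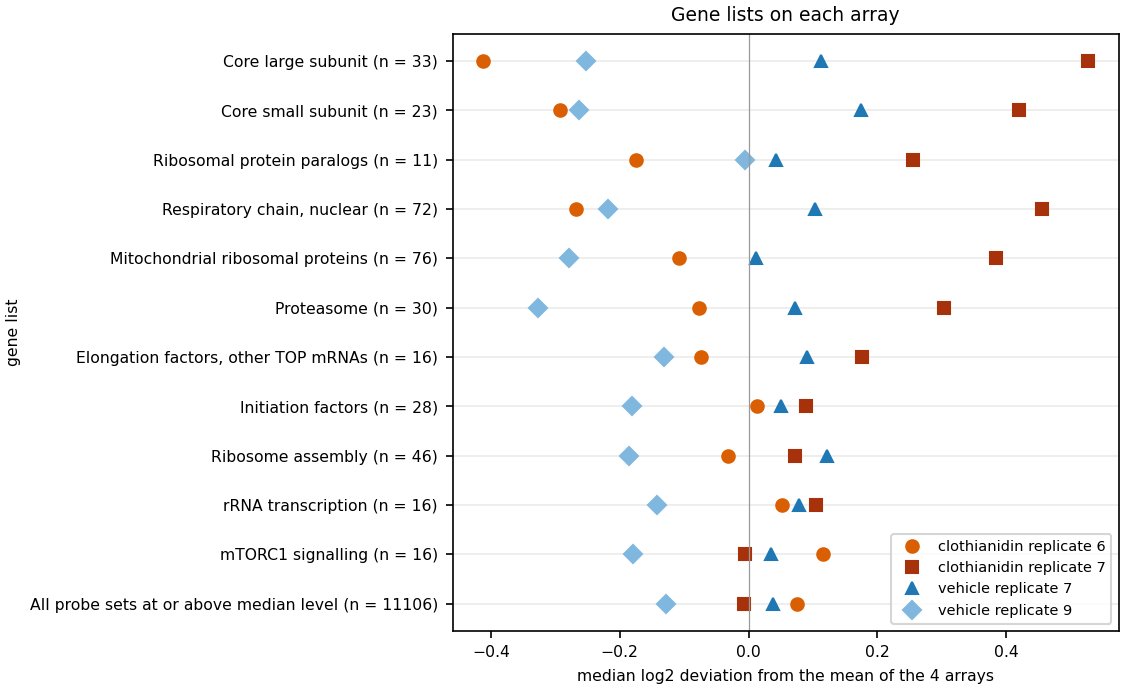
Median log2 deviation from the mean of the 4 arrays (x axis) for each gene list (y axis, with the number of genes), 1 point per array. The spread of points is widest for the core ribosomal protein and respiratory chain lists, where clothianidin replicate 7 is on the right, and narrow for ribosome assembly and ribosomal RNA transcription.

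Gene length and tissue makeup were set beside the array order. The genomic span of the ribosomal protein genes had a median of 3.35 kb, and 66 of the 69 lay within the range of the shortest bin (up to 9.25 kb) when other named genes of at least median level were cut into 5 equal bins by span. In that bin, 1969 other genes had a median gap of 0.16 between clothianidin replicate 7 and replicate 6, and in the longest bin the gap was -0.29. The gap between vehicle replicates 7 and 9 was 0.22 in the shortest bin and 0.12 in the longest. The part of span in the ribosomal protein pattern was not tested. RNA was accepted above an integrity number of 7 per the labels, and values per sample were not used here.

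The labelled tissue carried its defining transcripts. Gabra6, a granule cell receptor gene, was at 17.05 and 17.40 with clothianidin, against 17.41 and 17.09 with vehicle, and Pcp2, a Purkinje cell gene, at 16.68 and 17.18 with clothianidin, against 16.40 and 16.10 with vehicle. Granule cell markers (7 measured) had median deviations of 0.505 and -0.0025 on clothianidin replicates 6 and 7, against -0.285 and -0.15 on the vehicle arrays, an order unlike that of the ribosomal proteins. Purkinje cell markers (6 measured) were at 0.05 and 0.17 with clothianidin, against -0.05 and -0.15 with vehicle. Their highest array was that of the ribosomal proteins, but only 3 of the 6 were higher on clothianidin replicate 7 than on replicate 6. Calb1, for one, was at 16.51 and 16.30 with clothianidin, against 15.74 and 15.75 with vehicle. Ttr, the thyroid hormone carrier made by choroid plexus, was at 6.38 and 13.96 with clothianidin, against 5.70 and 5.67 with vehicle, so the array with the most ribosomal protein signal was also the one with Ttr. Of the 10 choroid plexus markers 6 were higher on clothianidin replicate 7 than on replicate 6, and the median level of the list was 5.465 and 5.805 with clothianidin, against 5.345 and 5.295 with vehicle. After Ttr, the widest gap was that of Kcnj13, at 6.97 and 8.92 with clothianidin, against 6.99 and 6.73 with vehicle. Kcne2 was at 4.11 and 5.47 with clothianidin, against 4.89 and 4.77 with vehicle, and Folr1 at 5.24 and 6.05 with clothianidin, against 4.62 and 4.92 with vehicle. Kl and F5 were also higher on clothianidin replicate 7 than on replicate 6, and Otx2, Aqp1, Clic6 and Slc4a5 were lower. Otx2 was at 7.92 and 7.38 with clothianidin, against 7.62 and 7.45 with vehicle. The part of choroid plexus tissue in the ribosomal protein values was not tested. In whole tissue, fewer cells of a type and less RNA per cell cannot be told apart.

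Between the groups, no ribosomal protein gene passed limma, a moderated linear model fitted to all probe sets, at a Benjamini-Hochberg adjusted p of 0.05. The count was 0 of 69, with 0.0% called over all 22206 probe sets, and the limma adjusted p was 0.997 for 68 members and 0.999 for Rpl15. Before adjustment, 3 members had a limma p under 0.05, a share of 4.35% where 4.23% of all probe sets were called. Of these, 2 were higher with clothianidin, where 2.3% of all probe sets were called higher, and 1 was lower, where 1.93% were called lower. A linear model without moderation called 8 probe sets over the whole array and 0 members. In that model a probe set with equal values within each group, but not between groups, has a standard error of 0 and passes. How many of the 8 were of that kind was not examined. The standard error of a member's log2 difference was 0.35 at the median and ran from 0.27 to 0.61.

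The values of the groups did not overlap for 9 of the 69 genes (13.0%), where 30.6% of all probe sets did not overlap. Of these, 8 were higher with clothianidin (Rpl6, Rpl37, Rpl37rt, Rpl3l, Rps4l, Rps6, Rps13 and Rps15a), where 15.1% of all probe sets were higher without overlap. The gene Rpl7l1 was lower, where 15.5% of all probe sets were. At least 1.5-fold apart without overlap were 3 members (Rpl6, Rpl37rt and Rpl7l1), with 7.61% called over all probe sets.

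The log2 difference, clothianidin minus vehicle, was positive for 43 members (62.3%) and negative for 26, with a median of 0.075. With quantile normalization 35 were positive and 34 negative, with a median of 0.01. All probe sets had a median of -0.01, and those of at least median level, where 66 of the 69 members lay, had a median of 0.065 with 58.6% higher. The large subunit had 28 of 41 genes higher and a median of 0.12, and the small subunit 13 of 26 and a median of 0.0075 (-0.10 with quantile normalization). The difference between the subunit medians was 0.11 and was not tested.

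The sign of these medians depended on which array was left out. Without clothianidin replicate 6 the median was 0.525 for the large and 0.44 for the small subunit, with 62 of 69 genes higher. Without clothianidin replicate 7 it was -0.28 for the large and -0.385 for the small subunit, with 49 of 69 genes lower. Leaving out vehicle replicate 7 gave 0.275 and 0.245, and leaving out vehicle replicate 9 gave 0.02 and -0.175. These fits hold a lone array in 1 group, taken to vary like the other group, and 53 of the 69 genes changed sign in at least 1 of them.

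**Figure D4:**
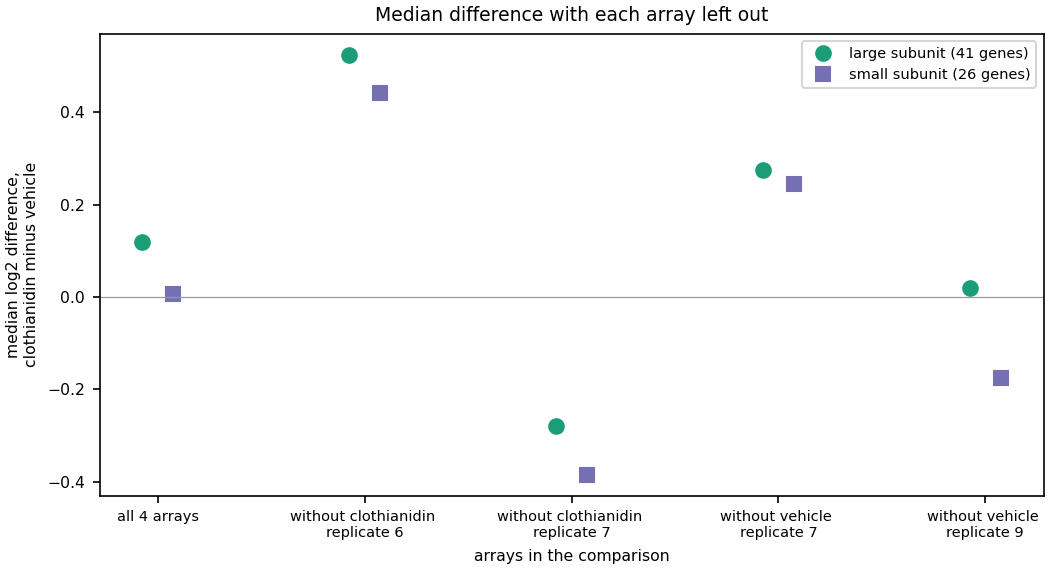
Median log2 difference, clothianidin minus vehicle (y axis), of the large and small subunit genes with all 4 arrays and with each array left out (x axis). Both subunits move together, and the medians are 0.525 and 0.44 without clothianidin replicate 6 and -0.28 and -0.385 without clothianidin replicate 7.

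Among core large subunit genes the highest log2 differences were those of Rpl36a, Rpl6, Rpl22, Rpl31 and Rpl23. Rpl6 was at 12.64 and 12.92 with clothianidin, against 12.34 and 11.77 with vehicle, and both clothianidin values lay above both vehicle values. Its log2 difference was 0.725 with a standard error of 0.31 (limma unadjusted p = 0.0470, adjusted p = 0.997). X-linked Rpl36a was at 9.69 and 10.83 with clothianidin, against 9.70 and 9.30 with vehicle, a log2 difference of 0.76 ± 0.40 (SE), with clothianidin replicate 7 above the other 3 arrays. The log2 differences of Rpl22, Rpl31 and Rpl23 were 0.59, 0.49 and 0.48, each with overlapping groups. Rpl37 also had a log2 difference of 0.475 ± 0.28 (SE), here with groups that did not overlap.

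On the lower side, the core large subunit genes were led by Rpl9 (-0.56 ± 0.53, SE) and Rpl17 (-0.37 ± 0.55, SE), both low on clothianidin replicate 6 as described. Rpl35a was at 10.44 and 11.14 with clothianidin, against 11.02 and 10.99 with vehicle, and Rpl36 at 7.95 and 8.65 with clothianidin, against 8.51 and 8.46 with vehicle. In both, clothianidin replicate 6 was the low array and the other 3 were close. Rpl8, a protein near the peptidyl transferase centre, had a log2 difference of -0.165, and Rpl3, another protein of that region, 0.12, each with overlapping groups.

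Of the core small subunit genes, Rps13, Rps24, Rps20, Rps6 and Rps23 had the highest log2 differences. Rps13 was at 8.91 and 9.50 with clothianidin, against 8.65 and 8.73 with vehicle, a log2 difference of 0.515 ± 0.30 (SE) with no overlap. Rps6, whose phosphorylation by S6 kinase is a common readout of mTORC1 activity, was at 15.26 and 15.66 with clothianidin, against 15.21 and 15.00 with vehicle. The 2 groups of Rps6 were apart by 0.05 at the nearest values, and its log2 difference was 0.355 ± 0.29 (SE). Rps24, Rps20 and Rps23 had log2 differences of 0.44, 0.38 and 0.27 with overlapping groups. The lowest differences were those of Rps14 (-1.05 ± 0.61, SE), Rps10 (-0.27), Rps16 (-0.245), Rps25 (-0.19), and Rps19 and Rps21 (both -0.13). Without clothianidin replicate 6 the log2 difference of Rps14 was 0.055, and without clothianidin replicate 7 it was -2.155.

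**Figure D5:**
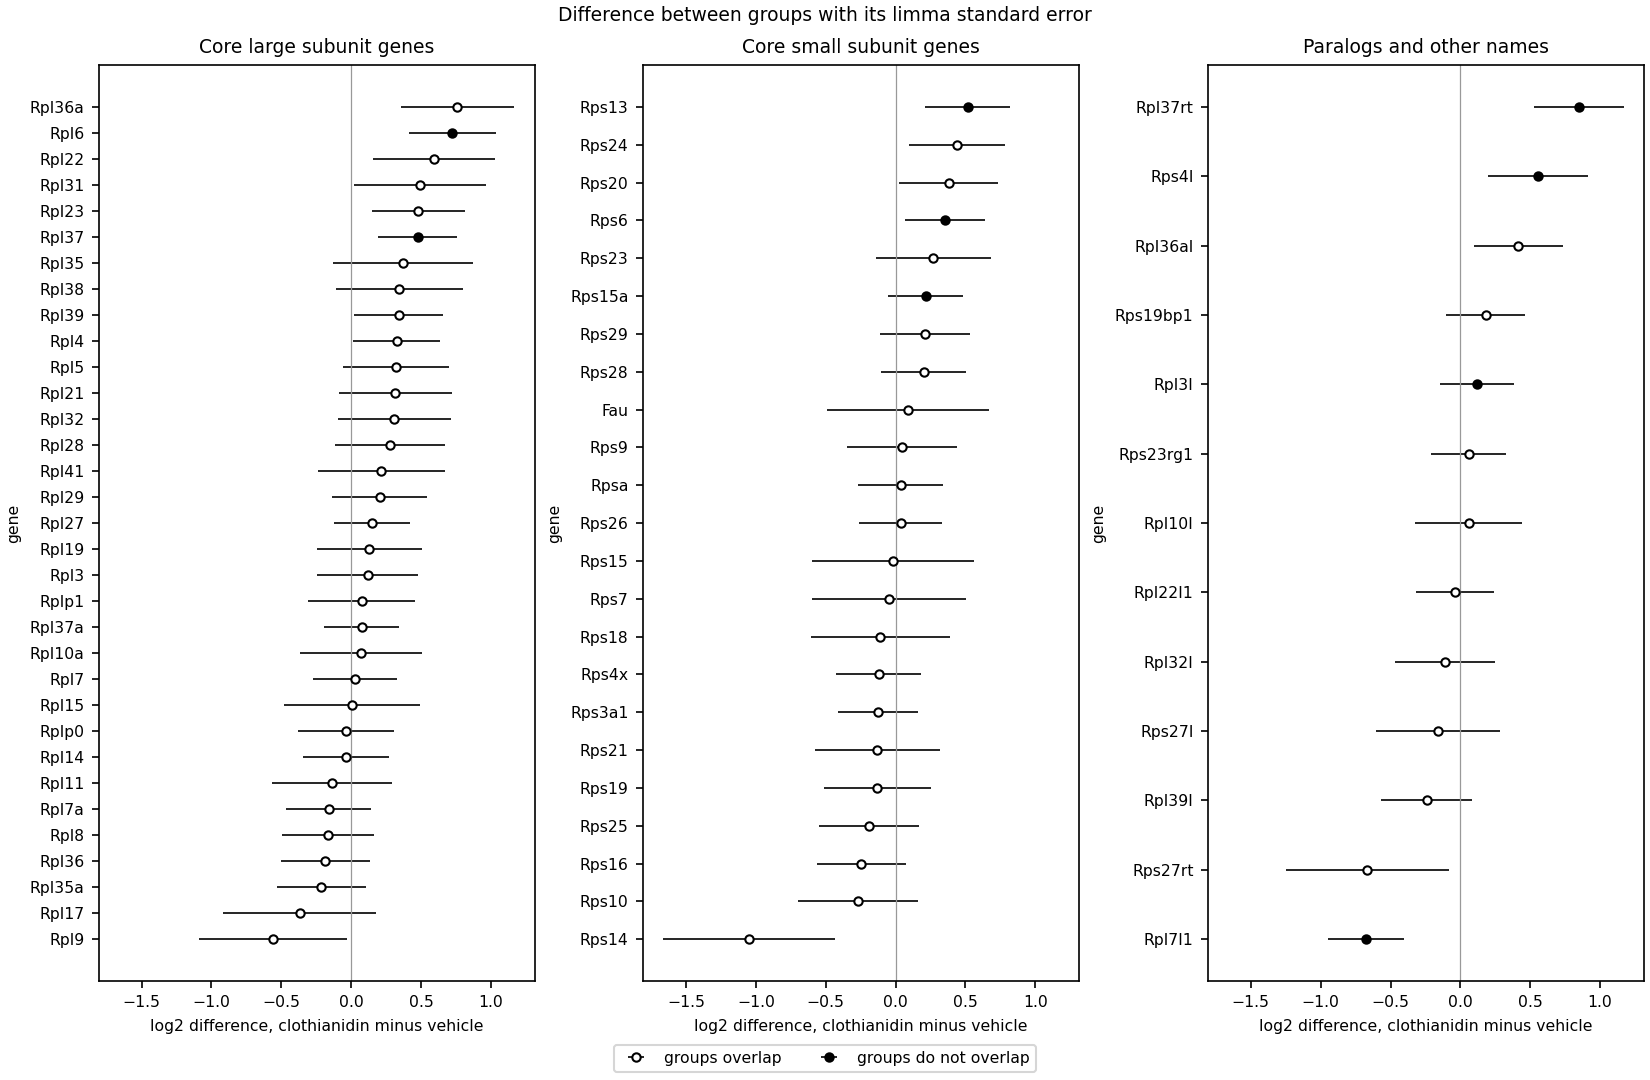
Log2 difference, clothianidin minus vehicle (x axis), of each gene with its limma standard error as a bar. Filled points are the 9 genes whose groups did not overlap; the median standard error is 0.35, and most bars reach 0.

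Members with defined places in the ribosome had differences on both sides of 0. For the stalk that recruits elongation factors, Rplp0 was at 10.70 and 11.11 with clothianidin, against 11.33 and 10.56 with vehicle, and Rplp1 at 14.94 and 15.84 with clothianidin, against 15.63 and 15.00 with vehicle. Both had groups that overlapped, with log2 differences of -0.04 and 0.075. Rpl5 and Rpl11, which carry the 5S ribosomal RNA and can bind Mdm2, the negative regulator of p53, had log2 differences of 0.32 and -0.135. Around the exit tunnel 6 genes were measured (Rpl4, Rpl17, Rpl19, Rpl31, Rpl35 and Rpl39), 5 of them higher, with a median of 0.33 and 0 without overlap, where 30.6% of all probe sets did not overlap. Near the messenger RNA exit, Rpsa, Rps26 and Rps28 had log2 differences of 0.035, 0.035 and 0.20, beside Rps14 at -1.05. Of the genes mutated in human Diamond-Blackfan anaemia, a ribosome disorder, 9 were measured, 4 higher and 5 lower, with a median of -0.045. Median values of 0.33 and -0.045 stand beside -0.01 for all probe sets and 0.065 for those of at least median level.

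Paralogs departed from the array order more often than core genes, with 7 of 11 higher on clothianidin replicate 7 than on replicate 6, against 53 of 56 core genes, a contrast that was not tested. Rpl7l1, a relative of Rpl7 that takes part in ribosomal RNA processing, was at 10.10 and 9.98 with clothianidin, against 10.84 and 10.59 with vehicle. It was the only member with both clothianidin values below both vehicle values, and its log2 difference was -0.675 ± 0.27 (SE; limma unadjusted p = 0.0391, adjusted p = 0.997). Rpl7 itself was at 12.80 and 13.22 with clothianidin, against 13.18 and 12.79 with vehicle. Rpl37rt, with values given above, had a log2 difference of 0.85 ± 0.32 (SE; limma unadjusted p = 0.0295, adjusted p = 0.997).

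The remaining paralogs were set beside their parent genes. Rpl22l1, the partner of Rpl22, was at 11.36 and 11.67 with clothianidin, against 11.65 and 11.46 with vehicle, a narrower range than that of Rpl22. Rpl36al, the autosomal relative of Rpl36a, was at 8.09 and 8.60 with clothianidin, against 8.18 and 7.68 with vehicle, and like Rpl36a it had its highest value on clothianidin replicate 7 and its lowest on vehicle replicate 9. Rps4l was at 7.47 and 7.47 with clothianidin, against 7.39 and 6.44 with vehicle, and X-linked Rps4x at 10.92 and 11.03 with clothianidin, against 11.39 and 10.80 with vehicle. Their log2 differences had opposite signs, at 0.555 for Rps4l and -0.12 for Rps4x.

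Of the names related to Rps27, the retrocopy Rps27rt was at 9.13 and 11.11 with clothianidin, against 11.09 and 10.48 with vehicle, low on clothianidin replicate 6 like Rps14. Rps27l, a p53-responsive paralog, was at 7.02 and 8.15 with clothianidin, against 7.30 and 8.19 with vehicle, with high and low arrays in each group. Rpl32l was at 7.64 and 8.51 with clothianidin, against 8.00 and 8.37 with vehicle. None of these had groups that were apart.

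The 2 dimmest members were paralogs known from other organs. The first quartile of array values was 4.34 and 4.45 with clothianidin and 4.46 and 4.56 with vehicle. Rpl3l, the muscle paralog of Rpl3, was at 3.50 and 3.53 with clothianidin, against 3.34 and 3.45 with vehicle, below that quartile on each array. Rpl39l, a testis paralog of Rpl39, was at 4.66 and 4.91 with clothianidin, against 4.67 and 5.38 with vehicle, above it. Whether these 2 transcripts were detected is unknown, because no background signal was used. Rpl10l, a testis retrogene with values around the array medians of 6.49 to 6.54, was at 7.10 and 6.04 with clothianidin, against 6.65 and 6.37 with vehicle, with its lowest value on the array where most core genes were highest. Of the names that are no ribosomal protein, Rps19bp1, a binding partner of Rps19, was at 7.61 and 7.68 with clothianidin, against 7.67 and 7.26 with vehicle, and Rps23rg1 at 5.69 and 5.81 with clothianidin, against 5.64 and 5.74 with vehicle. Both spanned under 0.5 over the 4 arrays.

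In the wider translation pathway, 0 genes passed limma over all probe sets, and counts at an unadjusted limma p under 0.05 are given here against 4.23% of all probe sets. Of 28 initiation factors 1 was counted, the ribosome-joining factor Eif5b, at 10.36 and 10.29 with clothianidin, against 9.41 and 9.77 with vehicle, with 16 of the list higher. Of 16 elongation factors and other TOP messenger RNAs 1 was counted, Naca, a subunit of the complex that meets nascent chains at the ribosome, at 13.09 and 13.32 with clothianidin, against 12.34 and 12.23 with vehicle. Both genes were higher on each clothianidin array than on each vehicle array. Next by p were Eif2b3 and Eif2b5, subunits of the exchange factor for eIF2, with log2 differences of 0.59 and 0.475, and the TOP list's Vim and Npm1, with 0.775 and 0.44. Among 46 assembly factors 1 was counted, Rbm19, at 7.46 and 7.61 with clothianidin, against 8.60 and 8.62 with vehicle, with 27 of the list higher and 19 lower. Nop10, a protein of the pseudouridylation particle, was at 12.95 and 13.97 with clothianidin, against 12.99 and 11.85 with vehicle, and Lsg1, which helps free the large subunit for use, at 9.96 and 9.19 with clothianidin, against 10.69 and 10.06 with vehicle.

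The lists for ribosomal RNA transcription and for chaperones of ribosomal proteins had 0 genes at an unadjusted limma p under 0.05. In the transcription list 9 of 16 were higher, with Polr2k at a log2 difference of 0.545, Ttf1 at 0.41 and Polr1e at -0.47. Of the 6 chaperone genes 3 were higher, with Pdcd2 at 0.585, Heatr3 at 0.52 and Pdcd2l at 0.385. Mitochondrial ribosomal protein genes were higher in 60 of 76, with a median of 0.24, and 3 were counted at the unadjusted threshold, all higher (3.95%, where 2.3% of all probe sets and 3.54% of those of at least median level were called higher). Mrpl23 was at 8.07 and 8.01 with clothianidin, against 7.33 and 7.07 with vehicle, and Mrpl42 at 10.84 and 11.44 with clothianidin, against 10.27 and 10.17 with vehicle, so that both were apart. Mrpl47 had a log2 difference of 0.77. Without overlap were 17 of the 76 (22.4%), all higher with clothianidin, where 15.1% of all probe sets and 20.9% of those of at least median level were higher without overlap.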

How the data were processed

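Total RNA of 4 cerebellum samples was put on Affymetrix whole-transcript arrays after GeneChip WT amplification, per the labels' protocols. RMA was the authors' method for the deposited log2 values, per the submitters' processing notes. The sources used here give no RMA version, settings or log base, and signal over background is unknown. The number of arrays limits the precision. Symbols came from the platform annotation, which can be old, and 0 changed when updated with the RefSeq table of GRCm38.p6.

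The clothianidin minus vehicle difference was fitted with lmFit and eBayes of limma 3.58.1 (R 4.3.3), with Benjamini-Hochberg adjustment over 22206 probe sets. The procedure was tested on simulated data. Moderation used a prior SD of 0.306 (5.96 degrees of freedom) beside 2 residual degrees of freedom. Counts over all probe sets stand in for a list test. The members and lists were chosen with earlier results of these data known, and the gaps within groups, the gene spans, the start tracts and the sorting of Rpl32l with the paralogs and of Rps23rg1 with the other names were added after the values were seen. Named genes were the 5 highest and lowest core differences of each subunit, members with unadjusted p under 0.05, genes of fixed structural roles, all paralogs and other names, the 3 smallest p of each pathway list, and the 3 highest and lowest members by level. The genes with the widest gaps, those against the array order, those without overlap, parent genes of paralogs and marker genes were named after their values were seen. Alternatives were median centring, quantile normalization, a level filter, other priors, no moderation, core genes only, other thresholds and leaving out each array.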

Additional observations from a re-analysis of the deposited data

How the results depend on the processing

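The array order of the ribosomal protein genes kept its signs on all 4 arrays with median centring, quantile normalization and core genes only. Quantile normalization turned the small subunit median to -0.10 and left 35 of 69 genes higher, where 43 were higher as deposited. With 1 array left out the median of the 69 genes ranged from -0.28 to 0.48, the large minus small median from 0.03 to 0.195, members with unadjusted limma p under 0.05 from 0 to 8, and members without overlap from 21 to 60 (with 62.2% to 66.9% of all probe sets). The 0 and the 8 came without vehicle replicate 9 and without clothianidin replicate 6, and leaving out clothianidin replicate 7 gave 6. Calls over all probe sets ranged from 0 to 1 in these fits, and the 1, without clothianidin replicate 6, was no member. Without moderation there were 8 calls, 0 of them members, and 1 member at the unadjusted threshold. With core genes only, 1 gene was under the unadjusted threshold and 5 did not overlap. At least 1.5-fold apart without overlap were 3 of all 69 members, of which only Rpl6 was a core gene. Fewer genes or a stricter rule enter these counts. The cause of the other changes was not tested. No paired analysis was possible because the groups share only replicate number 7.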

Other observations

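The signalling genes upstream of ribosomal protein translation had differences on both sides of 0. Of 16 genes of the mTORC1 pathway, clothianidin values averaged higher in 11 and lower in 5. Their median log2 difference was 0.10, and 0 had an unadjusted limma p under 0.05. Eif4ebp1, which encodes a repressor of cap-dependent translation, was at 5.02 and 5.04 with clothianidin, against 4.51 and 4.55 with vehicle, and its paralog Eif4ebp2 at 9.57 and 9.03 with clothianidin, against 8.96 and 8.53 with vehicle. Tbc1d7, a subunit of the tuberous sclerosis complex, was at 7.61 and 7.36 with clothianidin, against 7.40 and 6.12 with vehicle, with overlapping groups. The p53 and nucleolar stress list was divided, with 5 of 10 higher and a median of -0.07. In that list Sesn1 was at 12.01 and 11.86 with clothianidin, against 11.04 and 11.70 with vehicle. Sesn2 was at 4.23 and 4.58 with clothianidin, against 5.31 and 4.68 with vehicle. Gtse1 was at 4.71 and 4.40 with clothianidin, against 5.50 and 4.91 with vehicle. Eif4ebp1, Sesn2 and Gtse1 had values near the first quartile of the arrays, and whether they were detected is unknown.

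The respiratory chain and proteasome lists, which had the same highest array as the ribosomal proteins, were counted for genes with both clothianidin values above both vehicle values. These were 12 of 72 respiratory chain genes (16.7%) and 9 of 30 proteasome genes (30.0%), where 15.1% of all probe sets and 20.9% of those of at least median level lay so. The respiratory chain share is near the background. Ndufc2, a complex I subunit gene, was at 15.31 and 15.71 with clothianidin, against 14.64 and 14.41 with vehicle, and Cox7b at 13.63 and 14.54 with clothianidin, against 13.17 and 13.01 with vehicle. Ndufb3 had a log2 difference of 0.865 and the proteasome gene Psmb2 0.63. The proteasome core gene Psma1 was at 11.56 and 12.23 with clothianidin, against 11.20 and 10.84 with vehicle. Psma5, of the same core, had 9.01 and 9.29 with clothianidin, against 8.45 on each vehicle array. Before adjustment, 5 of 72 respiratory chain genes and 3 of 30 proteasome genes had a limma p under 0.05, all higher, where 2.3% of all probe sets and 3.54% of those of at least median level were called higher.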
